A study of Mus musculus with 8 samples.

Results

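Imprinted genes, which are transcribed mainly from the copy inherited from one parent, were examined in sorted mouse bone marrow LSK cells. The 36 genes were chosen by name from known mouse imprinted clusters and were matched by Ensembl gene ID to symbol among the 45706 genes of the deposited expression files; all 36 were matched. LSK cells lack lineage markers and carry Sca1 and Kit on their surface, a gate that holds haematopoietic stem cells (HSC) and multipotent progenitors. RNA-seq, and ATAC-seq for chromatin that a transposase can enter, each had 2 libraries from C57BL/6 mice with a conditional knockout of Hira and 2 from wild-type C57BL/6 mice. HIRA is the chaperone that places histone H3.3 into chromatin outside replication. The labels used here give neither the Cre driver nor the age or sex of the mice, and do not say that libraries of 1 group came from separate mice, so p-values measure the spread between these libraries only.

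Hira itself went against the labels, with 24.4 and 23.3 CPM (counts scaled to the TMM-adjusted library size) in the libraries labelled Hira KO and 16.5 and 17.2 CPM in those labelled WT. The log2 fold change was 0.50 (SE 0.19, adjusted p = 0.180, edgeR), and the names of the deposited files carry the other genotype from the sample titles. Groups here follow the titles, the libraries are called "labelled Hira KO" and "labelled WT", and each direction holds for the labels only. Values are given in the order replicate 1, replicate 2. Depth was 17.5 and 19.4 M expected counts in labelled Hira KO and 16.6 and 19.8 M in labelled WT. Mitochondrial genes took 42.9 and 53.1% of them in labelled Hira KO and 40.8 and 51.7% in labelled WT. Replicate 2 thus had the higher depth and mitochondrial share in both groups. The library labelled WT replicate 2 had 1470 Xist counts and 906 counts of the Y-linked gene Ddx3y, against at least 169234 and at most 2 in each of the other 3 libraries. The 4 ATAC peak lists held 63422 to 92839 peaks.

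Imprinting is set in the germline by DNA methylation of control regions, which are kept through development by factors such as the zinc finger protein ZFP57. Within a cluster, a long non-coding RNA transcribed from one parental copy often silences its neighbours on that copy. Several imprinted genes restrain or promote growth, and the maternally expressed RNAs of the Dlk1-Dio3 cluster and the cell cycle inhibitor gene Cdkn1c are known for their high levels in mouse long-term HSC. The libraries came from one inbred strain, so the parental copies could not be told apart here.

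Promoter sequences were matched to RefSeq (GRCm38.p6) for 27 of the 36 genes, as windows from 250 bases before to 50 bases after an annotated start. The first pair below belongs to the maternally expressed RNAs of the Dlk1-Dio3 cluster, shown because their RNA stood highest relative to the labelled WT libraries. No ATAC peak of any list overlapped either window. CG dinucleotides, the sites of DNA methylation, are in capitals. The Meg3 window (chr12:109540746-109541045, plus strand) held 13 of them and the Rian window (chr12:109603695-109603994, plus strand) held 0.
Meg3: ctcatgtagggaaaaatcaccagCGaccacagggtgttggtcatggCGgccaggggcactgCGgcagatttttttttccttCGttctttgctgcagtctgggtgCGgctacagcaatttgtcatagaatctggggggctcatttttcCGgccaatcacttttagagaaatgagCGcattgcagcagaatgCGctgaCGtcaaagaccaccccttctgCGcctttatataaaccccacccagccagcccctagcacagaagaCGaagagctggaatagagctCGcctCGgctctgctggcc
Rian: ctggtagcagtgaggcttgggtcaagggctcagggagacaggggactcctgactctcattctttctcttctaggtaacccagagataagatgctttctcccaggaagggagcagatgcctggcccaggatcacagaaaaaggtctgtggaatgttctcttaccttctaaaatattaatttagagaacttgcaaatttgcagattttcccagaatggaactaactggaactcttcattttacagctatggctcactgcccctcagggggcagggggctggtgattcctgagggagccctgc

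The second pair shows a promoter at which the peak lists differed by label and one that was open in every list. The window of Slc22a18 (chr7:143473539-143473838, plus strand, 2 CG) was overlapped by a peak in both labelled Hira KO lists and in neither labelled WT list. That peak had a -log10 q of only 3.79 in labelled Hira KO replicate 1, against 15.5 in replicate 2. The window of the long non-coding RNA Kcnq1ot1 (chr7:143296498-143296797, minus strand, 9 CG) was overlapped in all 4 lists.
Slc22a18: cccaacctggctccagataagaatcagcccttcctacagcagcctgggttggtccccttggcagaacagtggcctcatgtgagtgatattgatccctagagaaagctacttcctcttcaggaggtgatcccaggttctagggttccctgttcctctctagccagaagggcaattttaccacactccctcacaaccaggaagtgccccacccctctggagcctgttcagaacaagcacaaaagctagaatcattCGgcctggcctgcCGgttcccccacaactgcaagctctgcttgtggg
Kcnq1ot1: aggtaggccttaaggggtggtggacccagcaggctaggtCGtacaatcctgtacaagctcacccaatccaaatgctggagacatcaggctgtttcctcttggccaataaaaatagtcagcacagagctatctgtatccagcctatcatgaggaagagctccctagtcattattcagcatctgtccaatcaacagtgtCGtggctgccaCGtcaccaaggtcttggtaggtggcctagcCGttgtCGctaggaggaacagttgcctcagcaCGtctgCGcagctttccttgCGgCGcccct

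Over the 40 windows of the 27 genes the median number of CG dinucleotides was 13.5, against 7 over all 32851 RefSeq windows. The 6-base ZFP57 motif TGCCGC, searched on both strands, was present in 25% of the windows of imprinted genes and in 11.6% of all windows, and the Meg3 window held it. The YY1 motif GCCATNTT was present in 2.5% of the windows of imprinted genes and in 6.05% of all windows. These matches describe letters in the windows and not binding.

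The imprinted genes covered a wide range of levels in these cells. On the per-length scale of TPM, which corrects for transcript length, 19 of the 36 genes had a mean of at least 1 TPM over the 4 libraries. The highest means were those of Cd81 at 140.8 TPM, Gnas at 109.5 TPM, Ube3a at 33.6 TPM, Nap1l4 at 25.4 TPM and Kcnq1ot1 at 17.0 TPM. Dio3 and Magel2 had no count in any library. Kcnq1ot1, whose gene body spans 83437 bp, took 66.9 and 61.2% of all expected counts of the 36 genes in labelled Hira KO libraries and 64.3 and 67.0% in labelled WT libraries.

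Of the 36 genes, 25 passed the filter on low counts and were tested among 16258 genes. Rian and Peg13 were called higher in labelled Hira KO (2 of 25, edgeR quasi-likelihood test, Benjamini-Hochberg adjusted p below 0.05), against 1.32% of all tested genes. No imprinted gene was called lower by edgeR (0 of 25), against 0.48% of all tested genes. At an unadjusted p below 0.05, 8 of the 25 were higher and 5 lower, against 12.2% and 10.6% of all tested genes. DESeq2 also called Rian and Peg13 higher (against 5.65% of all tested genes), and limma on log2(TPM + 1) called Rian and Meg3 higher (against 2.41%). Neither tool called an imprinted gene lower, against 3.51% of all tested genes with DESeq2 and 1.61% with limma. Rian passed the filter through the labelled Hira KO libraries only, so it had to differ, and 410 of the 16258 tested genes passed in that way. In bulk RNA, fewer cells that express a gene and less of its RNA per cell cannot be told apart.

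**Figure D1:**
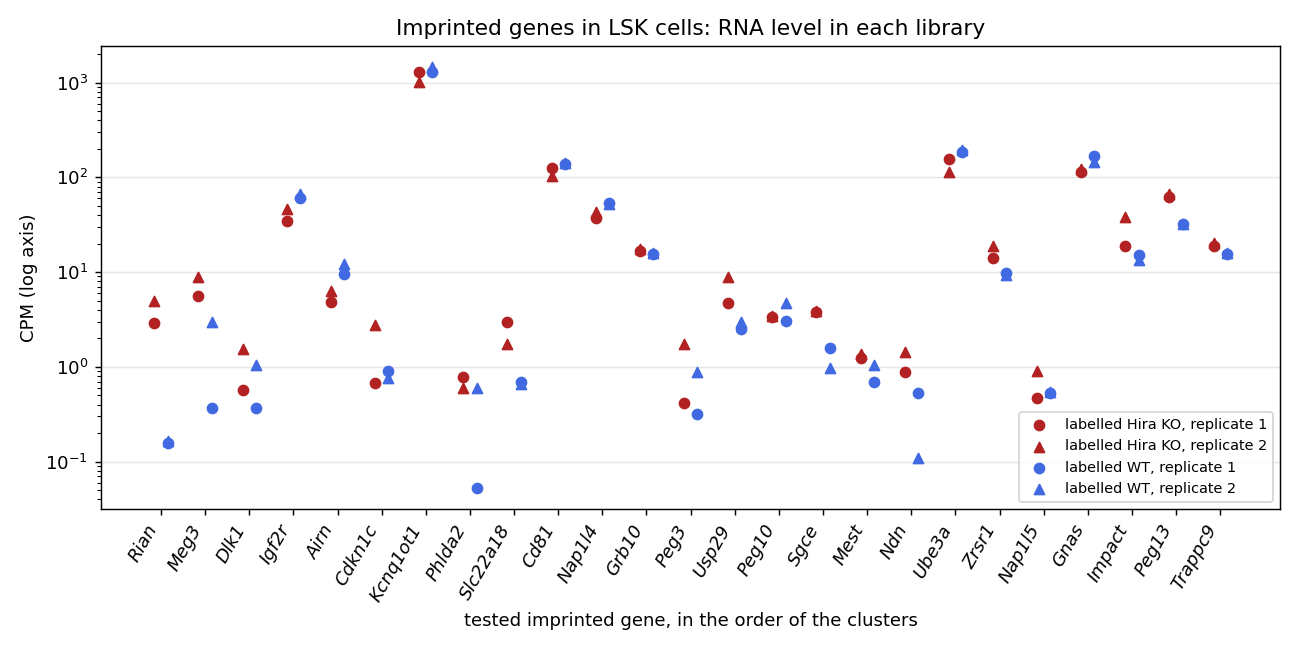
CPM (log axis) of the 25 tested imprinted genes in each library, in the order of the clusters, with labelled Hira KO in red left of labelled WT in blue and a circle or triangle for replicate 1 or 2. Rian stands apart from its labelled WT libraries, at 2.90 and 4.93 CPM against 0.159 and 0.164 CPM, while Kcnq1ot1 lies between 1023 and 1462 CPM in all 4.

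The fitted log2 fold changes of the 25 tested genes had a median of 0.60, against 0.01 over all tested genes, and 17 lay above 0 and 8 below. Both labelled Hira KO libraries were above both labelled WT libraries for 12 of 25 genes (48.0%, against 28.3% of all tested genes), and below both for 7 (28.0%, against 27.8%). Genes of high and low level differed in sign. Of the 7 genes whose log2 CPM averaged 5 or more, 6 had a log2 fold change below 0, with a median of -0.40 against -0.05 over all tested genes of that level. Of the 18 genes below that level 16 had one above 0, with a median of 0.92 against 0.05. The upward median rests on 1 library, since without labelled Hira KO replicate 2 the median over the 27 imprinted genes then tested was -0.105. Paternally expressed genes had a log2 fold change above 0 in 10 of 13 cases (median 0.80) and maternally expressed genes in 7 of 11 (median 0.33). Lists of these sizes were described and not tested.

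**Figure D2:**
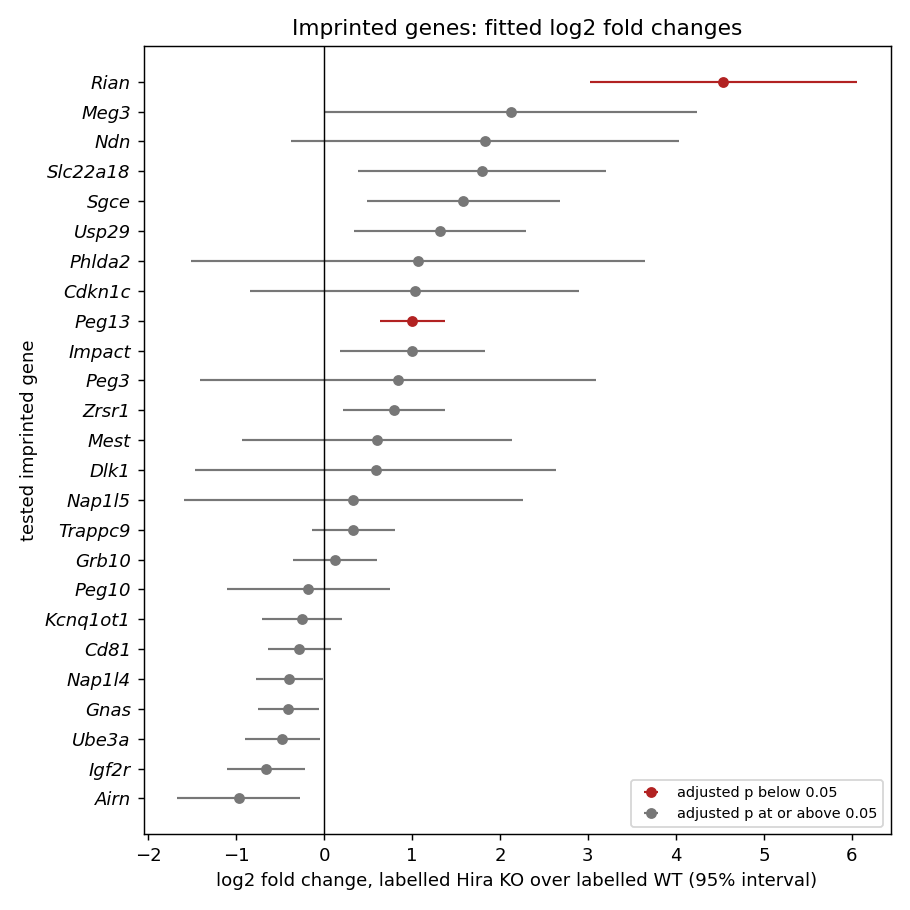
Fitted log2 fold change, labelled Hira KO over labelled WT, with its 95% interval for each of the 25 tested imprinted genes, in red where the adjusted p is below 0.05. Rian at 4.54 and Peg13 at 1.01 are the red points, and genes with wide intervals such as Phlda2 and Peg3 are those of low count.

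In the Dlk1-Dio3 cluster on chromosome 12, the non-coding RNA Rian was called higher in labelled Hira KO by edgeR, and its neighbours among the 36 genes were not. Rian (chr12:109603945-109661716), a non-coding RNA that hosts C/D box snoRNAs, had 56.1 and 82.1 expected counts in labelled Hira KO and 3.20 and 3.47 in labelled WT. In CPM these were 2.90 and 4.93 in labelled Hira KO against 0.159 and 0.164 in labelled WT, so the groups did not overlap. Rian rose with a log2 fold change of 4.54 (SE 0.65, adjusted p = 0.0336, edgeR), but it entered the test through the labelled Hira KO libraries only, so the filter shaped this p. The 2 labelled WT libraries held 6 rounded counts together against 138 in labelled Hira KO, and the ratio of 22.7 had an exact 95% interval of 10.2 to 63.0 that covers counting error only. Without labelled WT replicate 1 or 2 the log2 fold change was 4.5 and 4.55 and the call was lost (edgeR adjusted p = 0.322 and 0.263), in fits that called only 3 and 1 genes higher among all tested.

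Meg3 (chr12:109540996-109571729), the non-coding RNA at the start of the same maternal transcription unit, had 5.60 and 8.90 CPM in labelled Hira KO and 0.371 and 2.95 CPM in labelled WT. Both labelled Hira KO libraries were above both labelled WT libraries, and labelled WT replicate 1 was far below replicate 2. The edgeR test gave a log2 fold change of 2.12 (SE 0.85, adjusted p = 0.219), which ran from 1.28 without labelled WT replicate 1 to 4.25 without labelled WT replicate 2, and the count ratio of 4.15 had an exact 95% interval of 3.13 to 5.58 for counting error. In the TPM deposited by the authors Meg3 stood at 2.98 and 1.99 in labelled Hira KO and at 0.03 and 0.28 in labelled WT, and limma on log2(TPM + 1) called it (log2 fold change 1.59, adjusted p = 6.98e-05). The effective lengths that the authors' TPM divide by also differed, at 2378 and 4208 bases in labelled Hira KO and 14323 and 10416 bases in labelled WT. The TPM difference thus holds both the counts and these estimated lengths.

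The rest of the Dlk1-Dio3 cluster was near the limit of detection. Mirg, the host of a miRNA cluster, had 0 and 15 expected counts in labelled Hira KO and 0 and 1 in labelled WT. Dlk1, which encodes a transmembrane protein related to Notch ligands, had 0.570 and 1.56 CPM in labelled Hira KO and 0.371 and 1.04 CPM in labelled WT, which overlapped (log2 fold change 0.59, adjusted p = 0.741, edgeR). Its sign turned without labelled Hira KO replicate 2. Rtl1, a gene derived from a retrotransposon that lies antisense to this region, had 0.0518 and 1.74 CPM in labelled Hira KO and 0.265 and 0.438 CPM in labelled WT and was not tested. None of the 61 miRNA genes annotated in the cluster and 1 of its 13 snoRNA genes had a count, in libraries whose protocol is for total RNA from 50 ng of input and not for small RNA.

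Chromatin at Dlk1-Dio3 was closed at the promoters of Dlk1, Meg3, Rian, Mirg and Dio3 as far as the peak lists show, with no peak in any window. The only region of the cluster called in all 4 lists lay inside Meg3 (chr12:109542818-109543277), with the authors' fold enrichment at 10.02 and 8.58 in labelled Hira KO and 16.16 and 10.83 in labelled WT. These fold enrichments belong to each list's own background and were not tested between lists. The other 4 regions near these genes were called in labelled Hira KO replicate 1 alone, the library with the most peaks.

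In the Peg13-Trappc9 cluster on chromosome 15, Peg13 was called higher in labelled Hira KO and its host gene was not called. Peg13 (chr15:72805602-72810324), a paternally expressed non-coding RNA that lies inside Trappc9, had 61.9 and 67.0 CPM in labelled Hira KO and 32.2 and 32.01 CPM in labelled WT. Each pair lay close together and the groups did not overlap. The means were 64.4 ± 3.6 CPM in labelled Hira KO and 32.1 ± 0.12 CPM in labelled WT (SD, n = 2 each). Peg13 rose with a log2 fold change of 1.01 (SE 0.16, adjusted p = 0.0370, edgeR). The call was lost without either labelled WT library (log2 fold change 1.0 and 0.99), as were nearly all calls among all tested genes. It was also lost with limma on log2(TPM + 1) (log2 fold change 0.86, adjusted p = 0.343).

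Trappc9 (chr15:72589620-73061238), which encodes a subunit of a vesicle trafficking complex, had 18.9 and 20.5 CPM in labelled Hira KO and 15.5 and 15.8 CPM in labelled WT. These did not overlap either, but the log2 fold change of 0.33 did not pass the test (SE 0.20, adjusted p = 0.361, edgeR), and the difference from Peg13 was not tested. The sources used here do not state that strand was kept, so reads of Peg13 and of the Trappc9 pre-mRNA around it cannot be told apart. An ATAC region at the high-coordinate end of Peg13 (chr15:72809781-72811178) was called in all 4 lists, with fold enrichments of 23.08 and 19.56 in labelled Hira KO and 13.85 and 13.79 in labelled WT. The highest region of the cluster, beyond the high-coordinate end of Trappc9 (chr15:73067094-73068756), had 119.6 and 104.3 in labelled Hira KO and 116.0 and 91.3 in labelled WT, so at this region the lists overlapped.

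At Igf2r and its antisense RNA, values were lower in labelled Hira KO without passing the test. Igf2r (chr17:12682406-12769706) encodes the receptor that clears IGF2 and sorts lysosomal enzymes, and had 34.7 and 46.0 CPM in labelled Hira KO and 60.2 and 67.0 CPM in labelled WT. Airn (chr17:12741311-12859884), the paternally expressed RNA whose transcription silences Igf2r in cis, had 4.87 and 6.31 CPM in labelled Hira KO and 9.63 and 12.3 CPM in labelled WT. Both genes had both labelled Hira KO libraries below both labelled WT libraries. The log2 fold changes were -0.66 for Igf2r (SE 0.19, adjusted p = 0.105, edgeR) and -0.97 for Airn (SE 0.30, adjusted p = 0.121). The genes overlap, and without strand the reads in the shared stretch cannot be assigned. With no filter on low counts edgeR called both lower (adjusted p = 0.0107 for Igf2r and 0.0462 for Airn), as it did 3.42% of all genes then tested.

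Both promoter windows of Igf2r and Airn were open in all 4 lists. Of the cluster's 21 regions, 12 were called in every list (57.1%, against 40.7% of all regions). The highest of these lay inside Igf2r (chr17:12723889-12724862), with fold enrichments of 18.88 and 28.48 in labelled Hira KO and 31.56 and 26.26 in labelled WT. A weak region where the genes overlap (chr17:12759664-12760005) was called in both labelled Hira KO lists only, at 3.26 and 5.49.

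The Kcnq1ot1 domain on chromosome 7 held 7 of the 36 genes. Kcnq1ot1 (chr7:143213111-143296547), which silences its neighbours on the paternal copy, had 1283 and 1023 CPM in labelled Hira KO and 1287 and 1462 CPM in labelled WT. Replicate 1 of both groups had nearly the same level and the log2 fold change was -0.25 (SE 0.20, adjusted p = 0.479, edgeR). Its host gene Kcnq1, a potassium channel gene, was listed at 0 in all 4 libraries.

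Slc22a18 (chr7:143473726-143499334), a maternally expressed transporter gene in the domain, had 2.95 and 1.74 CPM in labelled Hira KO and 0.688 and 0.657 CPM in labelled WT. The groups did not overlap, and the log2 fold change of 1.80 did not pass the test (SE 0.60, adjusted p = 0.140, edgeR). Its promoter window, printed above, is where a region (chr7:143473540-143473823) was called in both labelled Hira KO lists and no labelled WT list. The fold enrichments were 3.50 and 8.24 and the -log10 q 3.79 and 15.5. With peaks limited to a -log10 q of at least 5, labelled Hira KO replicate 1 no longer called this region. Cdkn1c (chr7:143458339-143461059), which encodes the cyclin-dependent kinase inhibitor p57 that holds HSC in quiescence, had 0.674 and 2.76 CPM in labelled Hira KO and 0.900 and 0.766 CPM in labelled WT. The high value was that of labelled Hira KO replicate 2 alone, and without it the log2 fold change of 1.03 (adjusted p = 0.481, edgeR) turned to -0.31.

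Phlda2, which encodes a pleckstrin homology protein that limits placental growth, had 0.777 and 0.601 CPM in labelled Hira KO and 0.0529 and 0.602 CPM in labelled WT, so the groups overlapped, and the log2 fold change of 1.07 ran from 0.18 without labelled WT replicate 1 to 3.53 without labelled WT replicate 2. Cd81, a tetraspanin gene at the edge of the domain, had 125.3 and 104.5 CPM in labelled Hira KO and 137.0 and 142.0 CPM in labelled WT (log2 fold change -0.28, adjusted p = 0.316, edgeR). Nap1l4, which encodes a nucleosome assembly protein, had 37.5 and 42.7 CPM in labelled Hira KO and 53.5 and 52.0 CPM in labelled WT (log2 fold change -0.40, adjusted p = 0.204, edgeR). For Cd81 and Nap1l4 both labelled Hira KO libraries were below both labelled WT libraries, without passing the test. Ascl2, a transcription factor gene of the trophoblast, stayed between 0.159 and 0.985 CPM and was not tested.

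Of the 46 ATAC regions of the domain 23 were called in all 4 lists (50.0%, against 40.7% of all regions). The labelled Hira KO pair alone called 2 (4.35%, against 5.64%) and the labelled WT pair alone called 0 (against 2.77%). The highest region of the domain, at the high-coordinate end of Nap1l4 (chr7:143548094-143550225), had fold enrichments of 123.8 and 123.5 in labelled Hira KO and 141.8 and 107.7 in labelled WT. The second region of the labelled Hira KO pair lay upstream of Cd81 (chr7:143042893-143043332) at 3.73 and 4.12.

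At the Gnas cluster on chromosome 2 several ATAC regions differed by label, while Gnas itself was not called. Gnas (chr2:174284320-174346744) encodes the stimulatory G protein alpha subunit and, from other starts, imprinted isoforms. It had 112.8 and 122.7 CPM in labelled Hira KO and 166.4 and 145.4 CPM in labelled WT, which did not overlap (log2 fold change -0.41, SE 0.15, adjusted p = 0.166, edgeR). The gene-level files do not split its isoforms. All 5 regions near imprinted genes that were called in the labelled WT pair only lay at Gnas. That was 26.3% of the 19 regions of the cluster, against 2.77% of all regions. The 5 regions started at 174298540, 174326649, 174338434, 174341146 and 174342794 and had fold enrichments between 3.27 and 5.97 in labelled WT. With peaks limited to a -log10 q of at least 5 none of the 5 was left.

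A pair of stronger regions of the Gnas cluster, named outside the rule given below, was called in all 4 lists with unequal enrichments. The region chr2:174294507-174296695 had fold enrichments of 19.81 and 13.38 in labelled Hira KO and 70.62 and 53.17 in labelled WT. Its neighbour chr2:174296759-174297732 had 10.96 and 10.64 in labelled Hira KO and 50.80 and 29.87 in labelled WT. At the region with the highest enrichment over all 4 lists, chr2:174327047-174328198, the values were 48.49 and 38.78 in labelled Hira KO and 51.38 and 35.78 in labelled WT, so the lists overlapped there. The first of these regions covers the high-coordinate end of Nespas (RefSeq Gnasas1, chr2:174281237-174295436), which is where this paternally expressed antisense RNA starts, in the germline control region of the cluster.

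Nespas is not among the 36 genes and was singled out after its values were seen. It had 27.0 and 4 expected counts in labelled Hira KO and 110.1 and 141.7 in labelled WT. In CPM these were 1.40 and 0.240 in labelled Hira KO and 5.82 and 7.77 in labelled WT, with no overlap. The edgeR log2 fold change of -3.01 did not pass the test (SE 0.70, adjusted p = 0.0737), while DESeq2 called Nespas lower (adjusted p = 0.00123), as did limma on log2(TPM + 1) (adjusted p = 0.00117). Without labelled Hira KO replicate 1 or 2 the edgeR log2 fold change of Nespas was -4.8 and -2.28. Without labelled WT replicate 1 or 2 it was -3.22 and -2.81. Each of these fits had 1 library left in a group. The exact 95% interval of the count ratio, 8.22 in favour of labelled WT, was 5.65 to 12.4 for counting error. RNA and peak lists at this position thus had the same order of groups, and whether one goes with the other was not tested. Strand was not stated to be kept, so reads of Nespas and of Gnas transcripts that overlap it cannot be told apart.

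**Figure D3:**
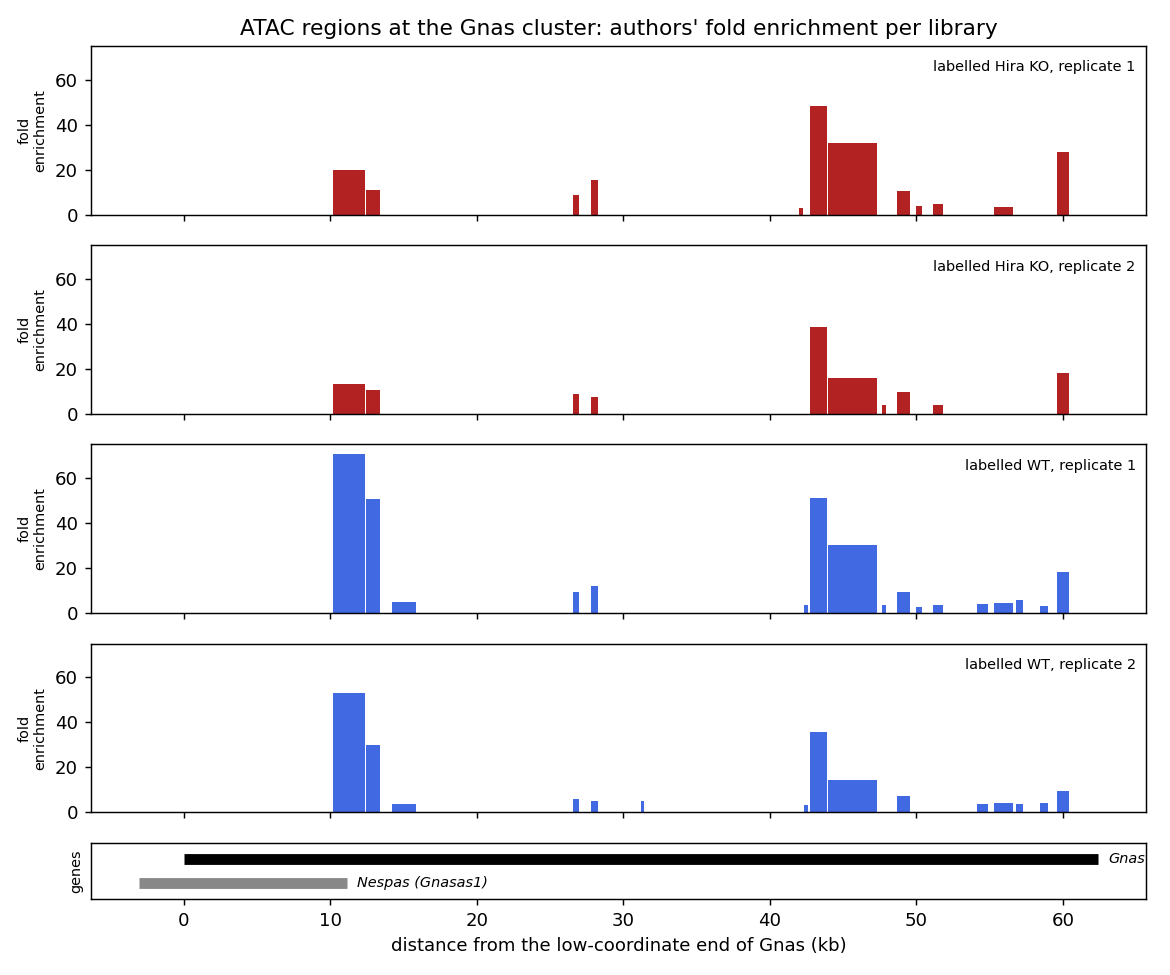
ATAC regions at the Gnas cluster in each peak list, with labelled Hira KO above labelled WT, plotted as the authors' fold enrichment against the distance from the low-coordinate end of Gnas (kb), and the gene bodies below. The region at the start of Nespas reaches 19.81 and 13.38 in labelled Hira KO and 70.62 and 53.17 in labelled WT, while the region of highest enrichment over all 4 lists reaches 48.49 and 38.78 against 51.38 and 35.78.

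Genes of the Peg3 and Peg10-Sgce clusters were expressed at low levels and none was called. Usp29 (chr7:6730559-6967220), which encodes a deubiquitinase, had 4.71 and 8.90 CPM in labelled Hira KO and 2.49 and 2.95 CPM in labelled WT (log2 fold change 1.32, SE 0.42, adjusted p = 0.127, edgeR). Sgce (chr6:4674350-4747204), which encodes epsilon-sarcoglycan, had 3.83 and 3.91 CPM in labelled Hira KO and 1.59 and 0.985 CPM in labelled WT (log2 fold change 1.58, SE 0.47, adjusted p = 0.112, edgeR). Neither gene's groups overlapped and neither passed the test. Peg3, a zinc finger gene, had 0.415 and 1.74 CPM in labelled Hira KO and 0.318 and 0.875 CPM in labelled WT, and Zim1, its zinc finger neighbour, had 1 count or none in each library. Peg10, a gene derived from a retrotransposon, had 3.37 and 3.49 CPM in labelled Hira KO and 3.07 and 4.71 CPM in labelled WT, so that the labelled Hira KO values lay between those of labelled WT. The highest region called in all 4 lists lay inside Peg10 (chr6:4748629-4749641), at 44.06 and 20.25 in labelled Hira KO and 66.00 and 38.73 in labelled WT. The highest region of the Peg3 cluster, inside Peg3 (chr7:6729362-6729869), was weaker, at 7.69 and 4.46 in labelled Hira KO and 9.81 and 4.92 in labelled WT.

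In the Snrpn-Ube3a cluster none of the 36 genes was called by edgeR. Ube3a (chr7:59228750-59310837), a ubiquitin ligase gene imprinted in neurons, had 157.9 and 115.0 CPM in labelled Hira KO and 184.5 and 194.3 CPM in labelled WT (log2 fold change -0.47, SE 0.18, adjusted p = 0.180, edgeR). The groups did not overlap, and labelled Hira KO replicate 2 was the lowest library. Its promoter region (chr7:59227995-59229956) was the highest of the cluster, at 162.2 and 113.9 in labelled Hira KO and 162.6 and 114.9 in labelled WT. Ndn, which encodes necdin, a growth suppressor reported in mouse HSC, had 0.881 and 1.44 CPM in labelled Hira KO and 0.529 and 0.109 CPM in labelled WT (log2 fold change 1.83, SE 0.94, adjusted p = 0.291, edgeR), and ran from 1.11 without labelled WT replicate 2 to 3.31 without labelled WT replicate 1. Snrpn, a splicing protein gene, stayed at or under 0.363 CPM, and Magel2, a relative of Ndn, was at 0. The windows of Ndn, Snrpn and Magel2 had no peak in any list.

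Zrsr1 (chr11:22972005-22976496), an intronless splicing factor gene inside Commd1, had 14.2 and 18.9 CPM in labelled Hira KO and 9.85 and 9.25 CPM in labelled WT (log2 fold change 0.80, SE 0.25, adjusted p = 0.125, edgeR). Its groups did not overlap, while those of its host gene Commd1 did, at 8.81 and 12.6 CPM in labelled Hira KO and 8.05 and 9.52 CPM in labelled WT. The highest region near Zrsr1 (chr11:22981497-22982753) was enriched 60.14 and 54.22 in labelled Hira KO and 77.93 and 65.65 in labelled WT. Grb10 (chr11:11930499-12037428), which encodes an adaptor that restrains insulin and IGF receptor signalling, had 16.8 and 17.6 CPM in labelled Hira KO and 15.5 and 15.9 CPM in labelled WT. The log2 fold change of Grb10 was 0.13 with a 95% interval of -0.35 to 0.61 (adjusted p = 0.754, edgeR). Its highest shared region (chr11:12009989-12010551) had 18.42 and 15.79 in labelled Hira KO and 14.05 and 10.18 in labelled WT.

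Impact, which encodes a regulator of translation under amino acid stress, had 18.7 and 38.5 CPM in labelled Hira KO and 15.1 and 13.4 CPM in labelled WT (log2 fold change 1.002, SE 0.35, adjusted p = 0.155, edgeR). Most of that difference lay in labelled Hira KO replicate 2, since without it the log2 fold change was 0.38. A region inside Impact was enriched 77.86 and 68.63 in labelled Hira KO and 64.65 and 49.24 in labelled WT. Mest, which encodes a hydrolase-like protein, had 1.24 and 1.38 CPM in labelled Hira KO and 0.688 and 1.04 CPM in labelled WT (log2 fold change 0.60, adjusted p = 0.632, edgeR), and no region lay within 10 kb of it. Nap1l5, a nucleosome assembly gene inside Herc3, had 0.466 and 0.902 CPM in labelled Hira KO and 0.529 and 0.547 CPM in labelled WT, which overlapped.

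Nnat, Plagl1, H19 and Igf2 did not pass the filter on low counts. Nnat, a proteolipid gene, lay between 0.109 and 0.794 CPM over the 4 libraries. Plagl1, a zinc finger gene of growth control, lay between 0.109 and 0.476 CPM, and a region inside it (chr10:13103858-13104150) was called in the labelled Hira KO pair only, at 5.59 and 6.52. H19, a non-coding RNA, had 0.259 and 0.721 CPM in labelled Hira KO and 0.106 and 0.164 CPM in labelled WT. These did not overlap, at no more than 12 expected counts in any library. Igf2, the growth factor gene beside H19, had 0.104 and 1.02 CPM in labelled Hira KO and 0.159 and 0.547 CPM in labelled WT, which overlapped. Neither H19 nor Igf2 was tested. No region near H19 or Igf2 was called in all 4 lists. The highest region near Nnat that all lists called (chr2:157565920-157567053) had 24.24 and 19.90 in labelled Hira KO and 15.39 and 17.72 in labelled WT.

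Over all imprinted genes, 169 merged ATAC regions lay within 10 kb of a gene body, of which 78 were called in all 4 lists (46.2%, against 40.7% of 112479 regions). The labelled Hira KO pair alone called 5 of the 169 (2.96%, against 5.64% of all regions) and the labelled WT pair alone called 5 (2.96%, against 2.77%). Besides those given above, the labelled Hira KO pair alone called a region inside Trappc9 (chr15:73034626-73034950), at 4.43 and 6.52. A peak of every list overlapped a window of 7 of 27 imprinted genes (25.9%), namely Airn, Cd81, Gnas, Igf2r, Kcnq1ot1, Ube3a and Zrsr1, against 49.4% of all genes with a window. Among genes with a mean of at least 1 TPM these shares were 7 of 14 imprinted genes (50.0%) and 86.3% of all genes. Below 1 TPM they were 0 of 13 imprinted genes and 14.0% of all. The 9 imprinted genes without a window are left out. Nap1l4, Sgce, Impact, Peg13 and Trappc9 are among them and had a mean of at least 1 TPM. All 4 lists called a region across an end of the gene body of Nap1l4, Peg13 and Trappc9. Cdkn1c and Peg10, with means of 0.805 and 0.822 TPM, also lack a window. All lists called a region across an end of Cdkn1c (chr7:143460421-143461742) and the region inside Peg10 given above. That at Cdkn1c had fold enrichments of 51.28 and 38.09 in labelled Hira KO and 59.46 and 35.45 in labelled WT. The shares thus hold only for genes with a window. These shares are descriptions without a test, and genes of one cluster share their chromatin.

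**Figure D4:**
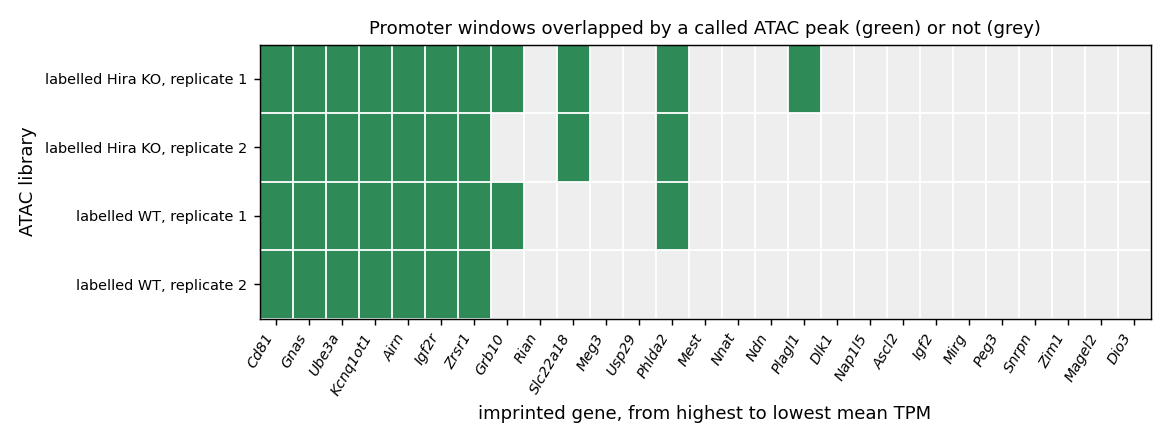
Promoter windows of the 27 imprinted genes with a RefSeq window, from highest to lowest mean TPM, in each ATAC list, with labelled Hira KO above labelled WT and green where a called peak overlaps a window. The 7 windows on the left are open in all 4 lists, and that of Slc22a18 only in both labelled Hira KO lists.

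A list of 53 other imprinted genes had 33 tested, of which 1 was called higher, 0 were called lower by edgeR and the median log2 fold change was 0.27. At an unadjusted p below 0.05, 7 were higher and 3 lower. DESeq2 called 3 higher and 1 lower, and limma on log2(TPM + 1) called 0 higher and 1 lower, Nespas being the gene called lower by both. Over all tested genes edgeR called 1.32% higher and 0.48% lower, DESeq2 5.65% and 3.51%, and limma 2.41% and 1.61%. At that unadjusted p, 12.2% were higher and 10.6% lower. The gene called by edgeR was Ppp1r9a, a neighbour of Peg10 that encodes the actin-binding protein neurabin, with 86.6 and 86.1 CPM in labelled Hira KO and 36.05 and 39.9 CPM in labelled WT. Ppp1r9a rose with a log2 fold change of 1.18 (SE 0.15, adjusted p = 0.0291, edgeR).

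Of 37 genes that maintain imprints or handle H3.3, 35 were tested, with 1 called higher, 0 called lower and a median log2 fold change of -0.18. At an unadjusted p below 0.05, 7 of them were higher and 6 lower, and DESeq2 called 3 in each direction while limma called 0. Over all tested genes 12.2% and 10.6% were higher and lower at that p. The shares called higher and lower were 1.32% and 0.48% with edgeR, 5.65% and 3.51% with DESeq2, and 2.41% and 1.61% with limma. Tet1, which encodes an oxidase of 5-methylcytosine, had 169.8 and 166.7 CPM in labelled Hira KO and 87.0 and 86.2 CPM in labelled WT and rose with a log2 fold change of 0.96 (SE 0.14, adjusted p = 0.0336, edgeR). Zfp57 had 3.68 and 3.25 CPM in labelled Hira KO and 1.16 and 0.711 CPM in labelled WT (log2 fold change 1.88, adjusted p = 0.0946, edgeR). Uhrf1, which brings the maintenance methyltransferase to replicated DNA, had 115.1 and 86.7 CPM in labelled Hira KO and 190.5 and 184.8 CPM in labelled WT (log2 fold change -0.89, adjusted p = 0.0528, edgeR). Of 24 IGF signalling genes 15 were tested and edgeR called 0, with 1 lower at an unadjusted p below 0.05 (Igfbp7), which DESeq2 and limma also called.

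Cell type markers moved with the labels beside these genes. Of 24 LSK and HSC genes 7 were called higher and 0 lower by edgeR, with a median log2 fold change of 1.23. At an unadjusted p below 0.05, 16 were higher and 0 lower. DESeq2 called 10 higher and 0 lower, and limma on log2(TPM + 1) 8 and 0. Over all tested genes edgeR called 1.32% higher, DESeq2 5.65% and limma 2.41%, and 12.2% were higher at that p. The summed level of the 24 genes was 873.4 and 794.6 TPM in labelled Hira KO and 467.6 and 400.6 TPM in labelled WT. Angpt1, which encodes a ligand of the receptor TIE2, had 247.0 and 289.8 CPM in labelled Hira KO and 80.6 and 85.02 CPM in labelled WT. Granulocyte and monocyte markers summed to 2790 and 1328 TPM in labelled Hira KO and 5880 and 3045 TPM in labelled WT (2 of 12 called lower by edgeR, Lcn2 and Ly6c2, 3 by DESeq2 and 6 by limma, and 7 at an unadjusted p below 0.05). Erythroid markers summed to 459.0 and 103.5 TPM in labelled Hira KO and 687.9 and 709.0 TPM in labelled WT (1 of 12 called lower by edgeR, Tspo2, 2 by DESeq2 and 4 by limma, and 3 at an unadjusted p below 0.05). Over all tested genes edgeR called 0.48% lower, DESeq2 3.51% and limma 1.61%, and 10.6% were lower at that p. Mast cell and basophil markers summed to 47.0 and 33.9 TPM in labelled Hira KO and 100.1 and 65.0 TPM in labelled WT, with 0 of 7 tested called by edgeR, 4 lower at an unadjusted p below 0.05, 2 lower by DESeq2 and 1 by limma. Stromal and endothelial markers, from cells in which several imprinted genes are high, overlapped at 64.6 and 52.8 TPM in labelled Hira KO and 70.2 and 46.6 TPM in labelled WT, with Bglap at 0 and 1 of 12 tested called lower (Cdh5). B and plasma cell markers overlapped too, at 402.0 and 244.1 TPM in labelled Hira KO and 379.2 and 243.7 TPM in labelled WT, with Jchain called higher and Igll1 lower of 13 tested. The part of these markers in the differences of Rian, Meg3 and Peg13 was not tested.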

How the data were processed

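Sorted LSK cells gave RNA-seq and ATAC-seq libraries, 2 labelled Hira KO and 2 labelled WT per assay, which were grouped by sample title. The submitters' processing notes list STAR 2.5.3a, RSEM 1.3.0, HTSeq, DESeq2, Trim Galore 0.4.5, Bowtie2 2.2.9, MACS2 2.1.1 and bedtools beside GRCm38, without their roles. RNA files hold the authors' expected counts, effective lengths and TPM per gene, per the file headers. Each ATAC library has a narrowPeak list deposited by the authors, in which a peak carries a fold enrichment (ratio), a -log10 p-value and a -log10 q-value. Handling of the transposase offset is, like the depth behind the lists, not given in the sources used. The imprinted genes and the other gene lists were chosen with earlier results of these data known, and the motifs after the expression values were seen.

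Symbols were found for 45143 of the 45706 gene IDs. Rounded expected counts went into edgeR 4.0.16 (R 4.3.3, TMM, filterByExpr, robust quasi-likelihood F test, 2-sided, genotype label as the only term) over 16258 genes, adjusted by Benjamini-Hochberg and called below 0.05. The filter kept genes with at least 0.542 CPM in 2 libraries, on CPM taken before TMM scaling and so on another scale than the CPM printed, and with the tool's default minimum of total counts. DESeq2 1.42.0 and limma 3.58.1 were alternatives. The biological coefficient of variation was 27.8%, and chi-square per gene within pairs was 66.2 in labelled Hira KO and 49.1 in labelled WT, above sampling noise. The depth of 16.6 to 19.8 M counts limits genes of low count most. A simulation of labelled Hira KO against labelled WT had 15772 fitted genes. In it edgeR called 0% of 50 genes set to a 1.5-fold change, 12% at 2-fold, 80% at 4-fold and 90% at 8-fold. It also called 16 of 15572 unchanged genes. A change was given only to genes averaging 4 CPM or more. The shares called thus do not cover genes of lower level, such as Slc22a18, Sgce and Cdkn1c. Peaks sharing an interval counted once, the mitochondrial interval was left out, and peaks of the 4 lists overlapping by at least 1 bp were merged into 112479 regions. Gene positions came from RefSeq GRCm38.p6. All 36 genes are named, with values per library for those called or with a mean of at least 1 TPM. Regions were named where 1 pair alone called them, or where they had the highest enrichment, by the lowest of the 4 lists, of those that all lists called at a cluster. The regions at ends of Cdkn1c and Peg13 and the Gnas pair starting at 174294507 and 174296759 fall outside this rule. At Peg13 and the Gnas pair the enrichments did not overlap between groups. Other shared regions of that kind were left out, such as chr17:12783180-12783778 in Airn. It had 18.42 and 7.55 in labelled Hira KO and 3.27 and 4.27 in labelled WT.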

Additional observations from a re-analysis of the deposited data

How the results depend on the processing

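Rian and Peg13 stayed called higher with DESeq2 size factors, a stricter filter, the DESeq2 test, without mitochondrial genes and with the replicate number as a block. Without either labelled WT library their calls were lost, as were nearly all calls among all tested genes. Of 293 alternatives for single imprinted genes, 268 kept direction and side of the threshold, 14 passed it, 6 lost it and 5 changed sign. The sign changed without labelled Hira KO replicate 2 for Dlk1, Cdkn1c, Peg3 and Nap1l5, and without labelled WT replicate 2 for Peg10. Over the 4 fits without 1 library the log2 fold change ran over -0.31 to 1.49 for Dlk1, -0.31 to 1.7 for Cdkn1c, -0.52 to 1.72 for Peg3, -0.21 to 0.72 for Nap1l5 and -0.47 to 0.14 for Peg10. The counts of all genes called higher and lower were 214 and 78, against 1206 and 1017 with no filter, 918 and 570 with DESeq2, 392 and 262 with limma on log2(TPM + 1), 376 and 246 with limma on log2(TPM + 0.1), and 368 and 169 with the replicate block. Leaving out 1 library gave 1 to 1657 higher and 1 to 1888 lower. With no filter 5 of 34 imprinted genes were called higher (Rian, Peg13, Meg3, Usp29 and Impact), against 4.06% of 29706 genes. Airn and Igf2r were called lower (2 of 34, against 3.42%). The median of all genes moved to 0.13 on the log2 scale. For the imprinted genes, leaving out 1 library gave a median log2 fold change of -0.105 to 0.909.

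Over genes, the log2 difference between replicates 1 and 2 in labelled Hira KO correlated at 0.0609 with that in labelled WT. The numbers were therefore not taken to pair the libraries, though depth and mitochondrial share followed them. The block changed no call of an imprinted gene. Regions near imprinted genes called in the labelled Hira KO pair only were 5 within 10 kb, 11 within 50 kb, 3 with a -log10 q of at least 5 and 8 to 34 when 1 list was left out. Those of the labelled WT pair were 5 within 10 kb, 0 with a -log10 q of at least 5 and 7 to 15 when 1 list was left out. Of the 5 of the labelled Hira KO pair within 10 kb, only those inside Plagl1 and Trappc9 had a -log10 q of at least 5 in both lists. The causes were not tested. With 2 libraries a group, genes under about 1 CPM gave wide intervals, and a peak list shows only what its caller passed.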

Other observations

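Asb4, an imprinted neighbour of Peg10 chosen after its values were seen, had 0.518 and 0.962 CPM in labelled Hira KO and 0 and 0.0547 CPM in labelled WT (adjusted p = 0.120, edgeR). Herc3, the host gene of Nap1l5, had 17.3 and 15.4 CPM in labelled Hira KO and 8.05 and 7.71 CPM in labelled WT (log2 fold change 1.05, adjusted p = 0.0666, edgeR), whereas the values of Nap1l5 itself overlapped. Snhg14, the long non-coding RNA that runs antisense to Ube3a, had 46.2 and 105.3 CPM in labelled Hira KO and 49.8 and 83.3 CPM in labelled WT. Replicate 2 was thus the higher library in both groups (log2 fold change 0.19, adjusted p = 0.860, edgeR). In the authors' TPM, which also divide by estimated lengths, the groups did not overlap. Snhg14 stood there at 137.31 and 146.69 in labelled Hira KO and 275.35 and 281.21 in labelled WT. H3f3b, a gene for histone H3.3, had 251.5 and 484.4 CPM in labelled Hira KO and 151.2 and 141.3 CPM in labelled WT (log2 fold change 1.33, adjusted p = 0.0847, edgeR), while H3f3a, the other H3.3 gene, had 100.4 and 107.9 CPM in labelled Hira KO and 121.7 and 129.5 CPM in labelled WT. None of these genes was called by edgeR. DESeq2 called H3f3b higher, as it did 5.65% of all tested genes.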
